A study of Caenorhabditis elegans with 2 samples.

Results

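The genes described here are the protein-coding homeobox genes of Caenorhabditis elegans whose name starts with ceh (C. elegans homeobox), apart from ceh-6, ceh-8, ceh-10, ceh-13, ceh-14, ceh-17, ceh-18, ceh-36 and ceh-37. Of 63 such genes in the WBcel235 annotation, 54 were left after these 9 were set aside, out of 19973 nuclear protein-coding genes. The rule for a gene is its name and uses no measured value, though the set was drawn up with earlier results of these data known. Binding sites were measured by ChIP-seq (chromatin immunoprecipitation with sequencing of the recovered DNA), which enriches DNA bound by a chosen protein and reports places of enrichment as peaks. The strain, OP174, had the genotype unc-119(ed3); wgIs174, in which wgIs174 is an integrated transgene that carries unc-119 and a copy of ces-1 with TY1, EGFP and FLAG tags. The material was mixed-stage embryos of pooled sex, taken as whole organisms of unknown age, with 2 biological replicates in a single group. Both replicates carry the same transgene, and the tagged factor is known here from the labels only.

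Homeobox genes encode transcription factors that bind DNA through a homeodomain, and in the worm embryo many of them fix the identity of neurons, muscles, epidermis or the pharynx. CES-1 belongs to the Snail family of zinc finger factors and is known for its part in the survival of the sister cells of the NSM neurons, which lie in the pharynx. The ceh genes fall into several classes. The NK-like class includes regulators of pharyngeal muscle and epidermis, the CUT class includes the ONECUT factors of neurons, the SINE class shapes the head and pharynx, and the TALE class includes partners of the Hox proteins.

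A peak in whole embryos does not say in which cells the DNA was bound, and binding in fewer cells cannot be told apart from weaker binding in more cells. The IDR-thresholded pooled list, kept by an irreproducible discovery rate that compares ranks between peak lists, held 6290 peaks, of which 6273 were nuclear. Which lists were compared is not known here. Each relaxed list held 30000 entries. Signal is the authors' own value for each peak, in units that are not stated, and ran from 58.7 to 3177 in the thresholded list. Read depth is not known from these files. A gene was counted as bound where the summit, the highest point of a thresholded peak, lay in the gene body or within 5 kb of it. The promoter window of a gene spanned 1000 bp before and 200 bp after each annotated 5′ end.

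The ceh genes were bound about as often as other genes, but those that were bound often had several summits in reach. Some of these summits were shared between ceh genes or stood nearer to another gene. In all, 23 of the 54 genes were bound, or 42.6% (95% exact binomial interval 29.2 to 56.8), against 42.3% of all protein-coding genes. At a reach of 2 kb the shares were 38.9% against 28.9%, and at 1 kb 29.6% against 22.9%. These differences were not tested. Among summits whose nearest 5′ end was that of a ceh gene, the strongest lay upstream of ceh-58, followed by those of the ONECUT gene ceh-38, the NK-type gene ceh-24 and ceh-88. No thresholded summit lay at the 3 ceh genes of the TALE class, ceh-20, ceh-40 and ceh-60, which allows a share of up to 70.8%. None lay at ceh-34, ceh-43, ceh-28 or ceh-51 either. Homeobox genes with other names are outside these class counts. A summit lay in the gene's own promoter window at 10 of 54 genes, or 18.5% (9.25 to 31.4), against 16.2% of all protein-coding genes.

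At least 2 summits lay in reach of 20 of the 54 genes, or 37% (24.3 to 51.3), against 19.2% of all genes. Among bound genes these were 20 of 23, against 3841 of 8456. A summit was counted for every gene in reach, also where another gene was nearer. The ceh gene had the nearest protein-coding 5′ end of a summit in 17 of 54 cases, or 31.5% (19.5 to 45.6), against 19.6% of all genes. These shares were set side by side without a test. The ceh genes had a median length of 2543.5 bp, against 2027 bp over all genes, and a median upstream intergenic stretch of 1831.5 bp, against 1156 bp. Among the ceh genes the bound ones were longer than the others by the median, 2944 bp against 1900 bp, and had 2373 bp of upstream intergenic sequence against 1771 bp. The part of these lengths in the counts was not tested.

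The 23 bound genes had 51 different summits, and 7 of these were within reach of 2 ceh genes. Per 10 kb, the merged windows of the 54 genes held 0.785 summits, against 0.626 over the nuclear genome. The median signal of the 51 summits was 115.2, against 119.1 over all nuclear thresholded peaks, and the range was 60.3 to 734. Of the 51, 10 ranked in the strongest 20% of the list and 14 in the weakest 20%. Summits whose nearest 5′ end was that of a ceh gene numbered 30 and had a median signal of 152.4. The other 21 had their nearest 5′ end at another gene and a median signal of 78.3.

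**Figure D1:**
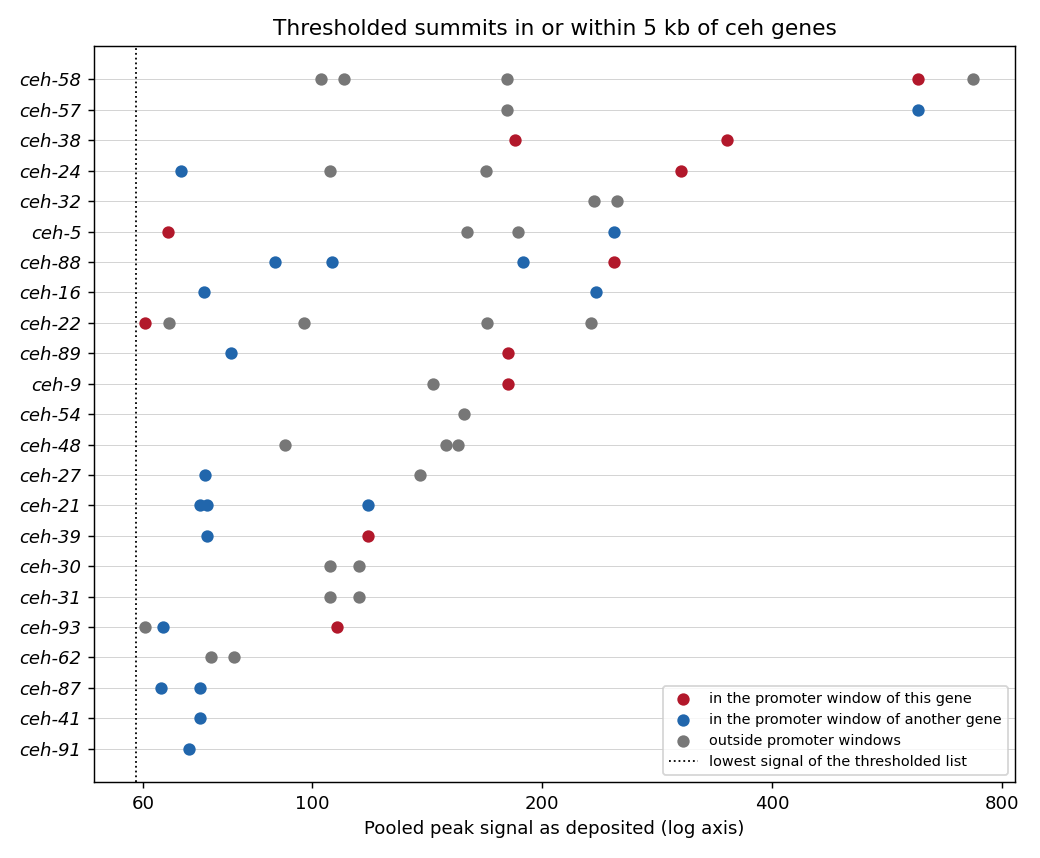
Pooled peak signal (log axis) of every thresholded summit in or within 5 kb of the 23 bound ceh genes, ordered by their strongest summit; colours show whether the summit lay in the gene's own promoter window, in that of another gene or in none, and the dotted line is the lowest thresholded signal, 58.7. The summits of ceh-58 reach 734 and those of ceh-91 only 69.0, and several genes are reached only by summits in other promoters.

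The summits lay mostly in intergenic DNA. Of the 51, 39 were intergenic, or 76.5% (62.5 to 87.2), against 62.7% of all nuclear summits. Introns held 7, or 13.7% (5.70 to 26.3), against 29.3%, and untranslated exons held 5, or 9.8%, against 5.47%. Coding exons held 0 of 51, which allows a share of up to 6.98%, and held 2.53% of all nuclear summits. In a promoter window of any protein-coding gene lay 26 of the 51, or 51% (36.6 to 65.2), against 44.3% of all nuclear summits. Of these 26, 11 were in the promoter of the ceh gene itself and 15 only in that of another gene.

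**Figure D2:**
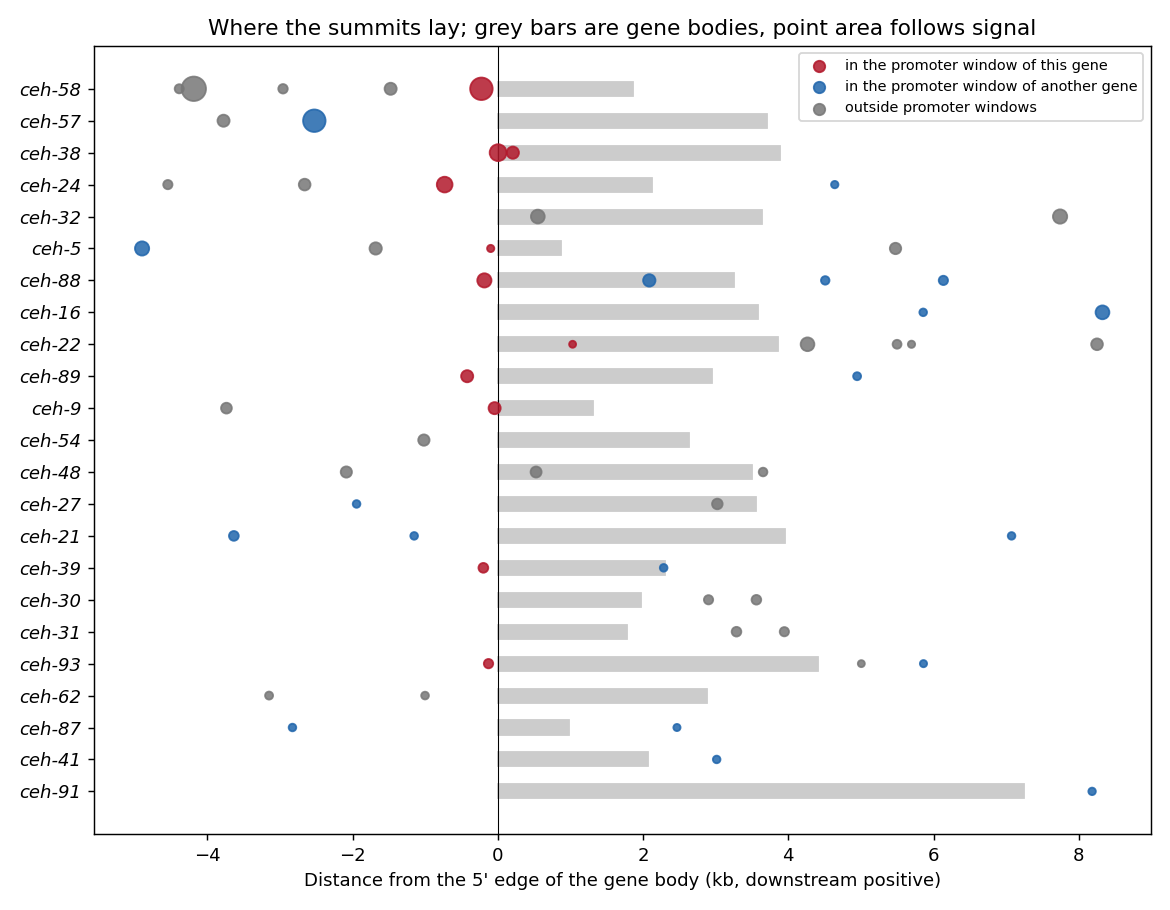
Position of each thresholded summit relative to the 5′ edge of the gene body (kb, downstream positive, each gene drawn in its own direction); grey bars are gene bodies and point area follows pooled signal. The summits of ceh-58 all lie upstream, those of ceh-30 and ceh-31 all lie past the 3′ end, and ceh-22 has 4 of its 5 past the 3′ end.

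The locus of ceh-57 and ceh-58 carried the strongest binding. The 2 homeobox genes stand in tandem on the minus strand of chromosome II, ceh-57 (WBGene00007416) from 10363584 to 10367296 and ceh-58 (WBGene00007417) from 10367741 to 10369597, with 444 bp between them and 15735 bp of intergenic DNA upstream of ceh-58. The strongest summit, at 10373784, lay 4187 bp upstream of ceh-58 and had a pooled signal of 734 (rank 72), with 312 in replicate 1 and 418 in replicate 2. The next, at 10369823, lay 226 bp upstream of ceh-58 in its promoter window and had a pooled signal of 621 (rank 136), with 340 in replicate 1 and 293 in replicate 2. The order of these 2 summits was not the same in the replicates, the distal one being lower in replicate 1 and higher in replicate 2. The 101 bases centred on each are shown because they are the strongest sites of the gene set. They come from the RefSeq genome (WBcel235, the same build as ce11) and are given on the plus strand, with each match to the E-box CANNTG in capitals; neither holds one.
ceh-58 distal, chrII:10373734-10373834: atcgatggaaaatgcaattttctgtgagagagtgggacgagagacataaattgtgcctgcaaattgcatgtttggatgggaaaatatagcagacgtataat
ceh-58 promoter, chrII:10369773-10369873: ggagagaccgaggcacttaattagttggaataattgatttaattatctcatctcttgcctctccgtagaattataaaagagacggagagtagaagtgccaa

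The promoter sequence of ceh-58 holds TAATTA 2 times, the core bound by many homeodomains. Between the 2 strong summits lay weaker ones, 1476 bp and 2958 bp upstream of ceh-58. The nearer had a pooled signal of 179.9, with 74.0 in replicate 1 and 105 in replicate 2. The farther had a pooled signal of 110, with 59.5 in replicate 1 and 57.2 in replicate 2. A further summit at 10373984, 4387 bp upstream, shares its peak (10373510 to 10374134) with the strongest one, so these are 2 summits of the same enriched stretch. Its pooled signal was 102.5, with 94.7 in replicate 1 and 26.8 in replicate 2. All 5 summits were intergenic and had ceh-58 as the nearest 5′ end. The summits at 10369823 and 10371073 were also within reach of ceh-57, at 2527 bp and 3777 bp from its nearest 5′ end, and ceh-57 had none in its own promoter window.

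Of the 6 ceh genes of the CUT class matched in the annotation, 5 were bound, or 83.3% (35.9 to 99.6). The share was 42.3% over all protein-coding genes. The interval treats the genes as separate, though ceh-21 shares summits with its neighbours ceh-39 and ceh-41. The listed CUT gene ceh-44 had no match under that name and was not counted. Promoter summits lay at ceh-38 and ceh-39. The gene with the strongest was ceh-38, which encodes an ONECUT factor (WBGene00000459, II, 6951526 to 6955409, plus strand). Its main summit, at 6951530, lay 4 bp inside the annotated 5′ end in an untranslated exon and had a pooled signal of 349.7 (rank 509), with 161 in replicate 1 and 190 in replicate 2. Another summit in the first part of the gene, at 6951733 in an intron, had a pooled signal of 184.1, with 67.3 in replicate 1 and 88.4 in replicate 2. Their peaks are separate (6951409 to 6951664 and 6951670 to 6951830). The 5′ end of malt-1, which runs the other way, lies across the 225 bp of intergenic DNA upstream of ceh-38. Both summits thus also lay in the promoter window of malt-1. The gene ceh-38 has 11 annotated 5′ ends, more than any other ceh gene that was bound.

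An ONECUT gene expressed across neurons, ceh-48 (WBGene00015934, IV, 6812108 to 6815607, plus strand), had 3 summits and none in its promoter window. The first lay 2086 bp upstream with a pooled signal of 155.3, 64.0 in replicate 1 and 89.3 in replicate 2. The next lay in an intron 527 bp past the 5′ end with a pooled signal of 149.6, 98.6 in replicate 1 and 52.3 in replicate 2. The order of these 2 also differed between the replicates. The last, 154 bp past the 3′ end, had a pooled signal of 92.1, with 46.7 in replicate 1 and 42.7 in replicate 2, and stood nearer to the 5′ end of C17H12.5.

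The ONECUT genes ceh-21, ceh-39 and ceh-41 form a tandem group on the minus strand of X, and ceh-39 is known as an X-linked signal in sex determination. The summit at 1856371 lay 199 bp upstream of ceh-39 and had a pooled signal of 118.1, with 71.1 in replicate 1 and 47.5 in replicate 2. That summit was also within reach of ceh-21, 3635 bp upstream. A summit at 1853888, in an untranslated exon of ceh-39, had a pooled signal of 72.7, with 29.1 in replicate 1 and 49.5 in replicate 2, and stood 39 bp upstream of the small gene T26C11.9. The only summit at ceh-41, at 1845661, had a pooled signal of 71.1, with 38.9 in replicate 1 and 39.8 in replicate 2, and stood 115 bp upstream of T26C11.4. No summit had ceh-21 or ceh-41 as its nearest 5′ end. Among the CUT genes counted, the one without a thresholded summit was ceh-49 (WBGene00017538, V, 6118333 to 6120206), where the nearest lay 10620 bp away.

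Of the 16 ceh genes put in the NK-like class, 8 were bound, or 50% (24.7 to 75.3), against 42.3% of all protein-coding genes. In the promoter window 4 were bound, or 25% (7.27 to 52.4), against 16.2%. The strongest promoter site of the class was at ceh-24 (WBGene00000447, V, 13813231 to 13815350, plus strand), an NK-type gene of a pharyngeal muscle, vulval muscles and head motor neurons. Its summit at 13812499, 732 bp upstream, had a pooled signal of 303.9 (rank 699), with 136 in replicate 1 and 173 in replicate 2. Farther upstream, a summit at 2660 bp had a pooled signal of 169, with 93.0 in replicate 1 and 79.5 in replicate 2. The remaining 2 summits within reach, with signals of 105.4 and 67.2, had their nearest 5′ ends at swan-1 and F55B12.2.

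The gene ceh-22 encodes an NK-2 factor that drives pharyngeal muscle genes (WBGene00000445, V, 10671918 to 10675769, plus strand), and it had 5 summits. The strongest, at 10676183, lay 414 bp past the 3′ end of the gene with a pooled signal of 231.7 (rank 1201), 113 in replicate 1 and 124 in replicate 2. Another, 4401 bp past the 3′ end, had a pooled signal of 169.3, with 90.2 in replicate 1 and 85.1 in replicate 2, and stood nearer to gsp-1. A further 2 stood 1647 bp and 1846 bp past the 3′ end, in overlapping peaks, with pooled signals of 97.4 and 64.8. The summit in the promoter window lay in an intron, 314 bp past the nearest of the gene's 5 annotated 5′ ends. That is outside the window of this end, and the summit counted because it lay in the window upstream of another, farther end. The summit was among the weakest at any ceh gene, with a pooled signal of 60.3 (rank 6167). It was found in replicate 2 with a signal of 37.4 and had no match in replicate 1. The sequences at the strongest sites of ceh-24 and ceh-22 are shown as those of the main muscle regulators bound, again on the plus strand; neither holds CANNTG.
ceh-24 promoter, chrV:13812449-13812549: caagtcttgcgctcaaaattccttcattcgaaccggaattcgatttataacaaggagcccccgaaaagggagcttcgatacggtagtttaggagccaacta
ceh-22 past the 3′ end, chrV:10676133-10676233: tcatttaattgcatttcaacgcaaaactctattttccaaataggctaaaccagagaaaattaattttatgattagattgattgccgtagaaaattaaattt

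The NK-2 gene ceh-27 (WBGene00000449, V, 11661549 to 11665102, minus strand) had an intronic summit at 11662079, 599 bp past an annotated 5′ end, with a pooled signal of 138.5, 58.6 in replicate 1 and 81.0 in replicate 2. A weaker one 1945 bp upstream, with a pooled signal of 72.4, stood nearer to F46F3.3. Both hold CAGGTG or its reverse complement CACCTG, the E-box of the Snail family, as does only a summit at ceh-62 among the 51. The 3 sequences are shown for that match, with every CANNTG in capitals.
ceh-27 intron, chrV:11662029-11662129: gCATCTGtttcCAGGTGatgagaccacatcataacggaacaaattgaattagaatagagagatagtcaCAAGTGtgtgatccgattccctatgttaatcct
ceh-27 upstream, chrV:11666997-11667097: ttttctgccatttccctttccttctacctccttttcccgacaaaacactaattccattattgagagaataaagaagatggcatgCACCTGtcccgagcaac
ceh-62 upstream, chrII:10802537-10802637: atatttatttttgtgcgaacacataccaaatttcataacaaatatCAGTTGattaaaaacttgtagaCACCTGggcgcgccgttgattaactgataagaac

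The engrailed gene ceh-16, which acts in the seam cells of the epidermis, was bound by the distance rule only. Its summits lay 4748 bp and 2279 bp past the 3′ end, with pooled signals of 235.0 and 72.1, and stood 103 bp upstream of dnj-10 and 3 bp upstream of polk-1. The stronger had 125 in replicate 1 and 115 in replicate 2, and the weaker 36.9 in replicate 1 and 34.6 in replicate 2. By contrast, the NK-like gene ceh-9 (WBGene00000434, I, 565284 to 566588) had a summit 44 bp upstream of its own 5′ end with a pooled signal of 180.6, 82.0 in replicate 1 and 93.8 in replicate 2. A further summit 3737 bp upstream of ceh-9 had a pooled signal of 143.7, with 68.3 in replicate 1 and 72.0 in replicate 2.

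The Vax-type gene ceh-5 overlaps the longer gene ocrl-1, which runs on the opposite strand of chromosome I, so its surroundings are shared. The summit in its own promoter window, 98 bp upstream, had a pooled signal of 64.7, with 39.4 in replicate 2 and no match in replicate 1. The strongest within reach, at 9722270, had a pooled signal of 248.4 and stood 446 bp upstream of eat-16, with 77.3 in replicate 1 and 169 in replicate 2. A summit 1682 bp upstream of ceh-5, in an untranslated exon of a neighbour, had a pooled signal of 186.1 and had ceh-5 as its nearest 5′ end. A further summit, 4612 bp past the 3′ end, had a pooled signal of 159.3, with 92.0 in replicate 1 and 70.4 in replicate 2.

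The BarH-type genes ceh-30 and ceh-31 converge on X, and ceh-30 is known to protect the CEM neurons of males from programmed cell death. Both summits of the pair lay in the 3096 bp between their 3′ ends. The one at 3067135 had a pooled signal of 115.2, with 64.6 in replicate 1 and 50.9 in replicate 2. The one at 3066476 had a pooled signal of 105.6, with 50.3 in replicate 1 and 63.3 in replicate 2. Neither lay in a promoter window, and they were closer to the 3′ end of either gene than to its 5′ end.

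Of the 3 ceh genes put in the SINE class, 1 was bound, or 33.3% (0.84 to 90.6), namely ceh-32. The genes ceh-33 and ceh-34 were not bound. The gene ceh-32 is a Six3-type regulator of head formation (WBGene00000453, V, 11701764 to 11705400, minus strand). Its intronic summit at 11704849, 551 bp past the 5′ end, had a pooled signal of 233.6 (rank 1179), with 104 in replicate 1 and 133 in replicate 2. A further summit of similar signal, 250.8, lay 4107 bp past the 3′ end, with 109 in replicate 1 and 145 in replicate 2, and stood 1960 bp upstream of W05E10.5. The gene ceh-34, needed for the identity of pharyngeal neurons, had no entry within 5 kb in the pooled relaxed list either, and its nearest thresholded summit lay 20280 bp away. For ceh-33 that distance was 27978 bp. The bases at the intronic site of ceh-32 are shown as those of the only ceh gene of the SINE class bound, on the plus strand. They hold no CANNTG.
ceh-32 intron, chrV:11704799-11704899: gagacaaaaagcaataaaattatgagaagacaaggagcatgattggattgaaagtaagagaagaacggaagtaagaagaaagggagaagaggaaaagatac

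Among the other 24 genes, which were put in no class here, 9 were bound, or 37.5% (18.8 to 59.4), against 42.3% of all protein-coding genes. A summit lay in the own promoter window of 4, or 16.7% (4.74 to 37.4), against 16.2%, with ceh-58 among them. At ceh-88 (WBGene00008195, IV, 17329188 to 17332435) the promoter summit lay 185 bp upstream with a pooled signal of 248.1 (rank 1039), 124 in replicate 1 and 118 in replicate 2, the strongest promoter site of this group after ceh-58. Its other 3 summits, with signals from 89.3 to 188.7, stood in the promoter windows of C49C3.6, C49C3.8 and C49C3.15. At ceh-89 (WBGene00009231, X, 14141946 to 14144889) the promoter summit lay 422 bp upstream with a pooled signal of 180.7, 110 in replicate 1 and 82.3 in replicate 2. At ceh-93 (WBGene00019864, X, 384385 to 388797) it lay 128 bp upstream with a pooled signal of 107.8, 42.5 in replicate 1 and 64.9 in replicate 2.

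The single summit of ceh-54 (WBGene00020485, X, 6191605 to 6194241) lay 1018 bp upstream, just outside the promoter window, with a pooled signal of 158.1, 76.2 in replicate 1 and 80.1 in replicate 2. At ceh-62 (WBGene00011069, II, 10805737 to 10808611) 2 upstream summits stood 1002 bp and 3150 bp away, with pooled signals of 73.7 and 79.0. The nearer had 42.1 in replicate 1 and 25.8 in replicate 2, and the farther 37.9 in replicate 1 and 42.6 in replicate 2. The summits within reach of ceh-87, with signals of 71.2 and 63.3, stood in the promoters of sup-9 and F34D6.1, and that of ceh-91, at 69.0, in the promoter of gly-8. These 3 summits were among the weakest of the set and were found in both replicates, with 21.6 to 25.7 in replicate 1 and 38.6 to 47.3 in replicate 2. A summit 594 bp past the 3′ end of ceh-93 differed most between the replicates, with 9.06 in replicate 1 and 51.1 in replicate 2.

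Most of these sites were found in both replicates. The thresholded list was itself derived from both replicates, so this match is no independent check. Of the 51 summits, 46, or 90.2% (78.6 to 96.7), had a summit within 100 bp in both relaxed replicate lists, against 94.5% of all nuclear summits. The other 5 were matched in replicate 2 only and had pooled signals from 60.3 to 78.3. The strongest summit of each of the 23 bound genes was found in both replicates. Over the 46 shared summits the log2 ratio of signals, replicate 2 over replicate 1, had a median of 0.15 and an SD of 0.67, and over all 5928 shared peaks a median of 0.15 and an SD of 0.57. Of the 46, 33 lay within 1 such SD of the overall median.

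**Figure D3:**
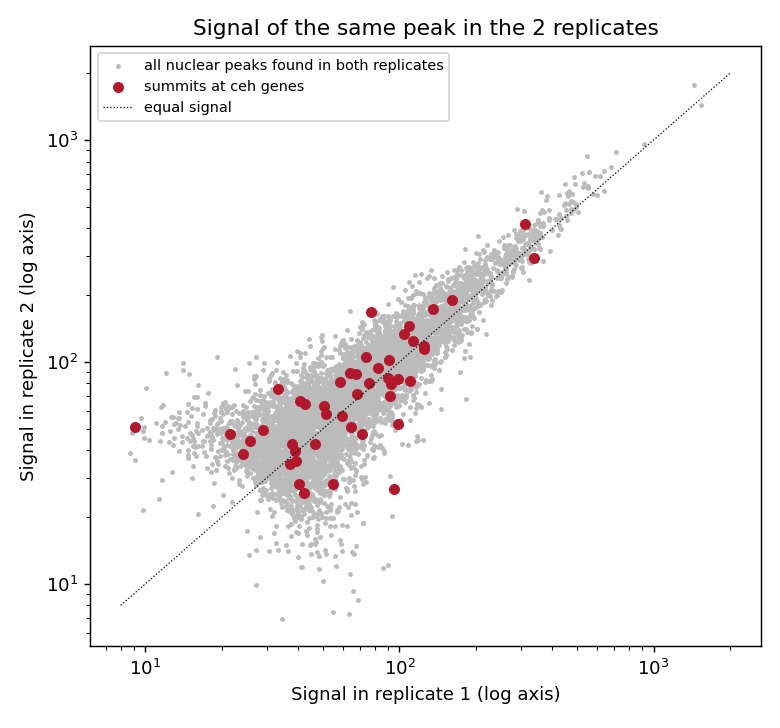
Signal of each peak in replicate 1 against replicate 2 (both log axes); red points are the 46 summits at ceh genes found in both replicates, grey points all 5928 nuclear thresholded peaks found in both, and the dotted line marks equal signal. Among the red points, the 2 strong ceh-58 summits stand apart toward the top right, with signals of 293 to 418. The widest split of a red point is the ceh-93 summit with 9.06 in replicate 1 and 51.1 in replicate 2.

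The Snail-type E-box was rare at these summits, as it was in the whole list. CAGGTG or CACCTG lay within 50 bp of 3 of the 51 summits, or 5.88% (1.23 to 16.2), against 1.80% of all nuclear summits. The 3 summits ranked 2647, 4864 and 5273 in the list. The general E-box CANNTG, which includes both, lay in 17 of 51 windows, or 33.3% (20.8 to 47.9), against 34.9%. TAATTA lay in 5 of 51, or 9.8%, against 8.59%. The median GC content of the windows was 40.6%, against 41.6%. A match of these letters is a description of the sequence and not a site shown to be bound.

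The 31 genes with no thresholded summit in reach were then sought in the relaxed pooled list, which was deposited as peaks and background. Of these, 16, or 51.6% (33.1 to 69.8), had an entry within 5 kb, against 38.1% of all protein-coding genes without a thresholded summit. The strongest entry of each had a signal from 13.5 to 57.2 with a median of 29.5, where the median of the relaxed list was 24.3. In 4 genes it had a −log10 q of at least 2, in 4 it lay in the gene's own promoter window, and in 7 it was matched in both replicates. In 9 of the 16 its nearest 5′ end was that of the gene itself.

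The gene ceh-20, a PBX-type partner of Hox proteins, had the strongest of these entries, 901 bp upstream with a signal of 57.2 (rank 6434), just below the lowest thresholded signal. It was matched in replicate 1 with 22.1 and not in replicate 2. At ceh-1 an entry 924 bp upstream had a signal of 57.0, with 36.4 in replicate 1 and 27.2 in replicate 2. At ceh-92 the signal was 53.6, 865 bp upstream, and it was matched in replicate 1 only. This entry stood nearer to Y66D12A.7, 257 bp from its 5′ end. At ceh-23 an entry 2626 bp upstream had a signal of 53.2, with 22.9 in replicate 1 and 28.2 in replicate 2. At ceh-100 an entry 205 bp upstream had a signal of 50.8, with 13.6 in replicate 1 and 43.4 in replicate 2.

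Weaker entries followed at ceh-53 (49.2), ceh-33 (34.8), ceh-63 (32.1), the PBX-type gene ceh-40 (26.9) and ceh-86 (26.5). Of these entries, only that of ceh-86 had its nearest 5′ end at the gene itself. Those of ceh-43, ceh-28, ceh-45, ceh-2, ceh-51 and ceh-74 were below the median of the relaxed list, at 13.5 to 23.7. These include the Distal-less gene ceh-43, the pharyngeal neuron gene ceh-28, the mesodermal gene ceh-51 and the goosecoid-type gene ceh-45.

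**Figure D4:**
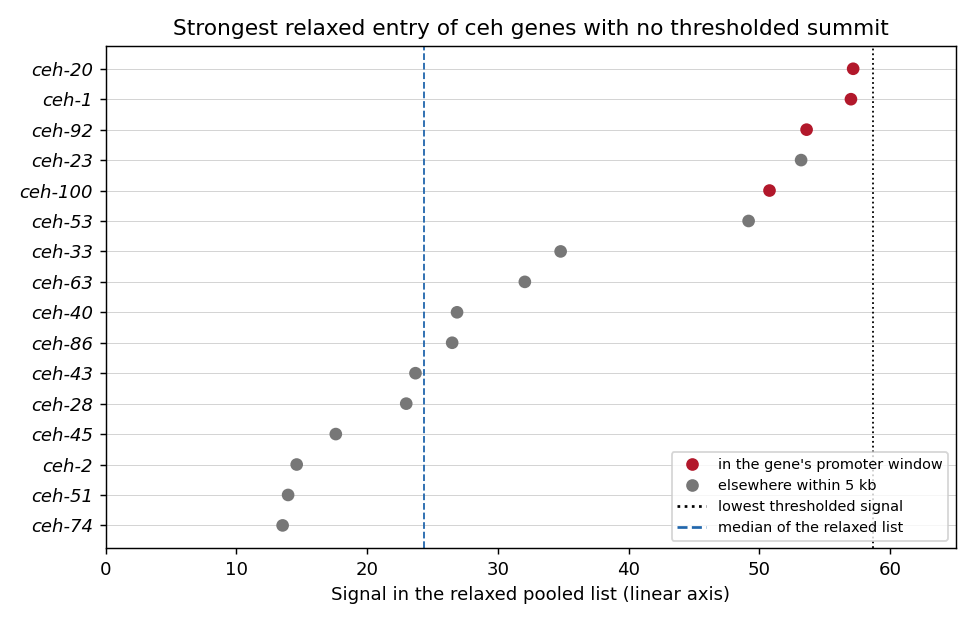
Signal of the strongest relaxed entry (linear axis) for the 16 ceh genes with no thresholded summit but an entry within 5 kb; red points lie in the gene's promoter window, the dotted line is the lowest thresholded signal, 58.7, and the dashed line the median of the relaxed list, 24.3. The top 6 genes lie between 49.2 and 57.2, and the 10 others at or below 34.8.

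The pooled relaxed list had no entry within 5 kb of the other 15 genes, namely ceh-7, ceh-12, ceh-19, ceh-34, ceh-49, ceh-60, ceh-75, ceh-76, ceh-79, ceh-81, ceh-82, ceh-83, ceh-84, ceh-90 and ceh-99. They include ceh-12, the HB9-type gene of motor neurons, ceh-60, a PBX-type gene, and ceh-19, which acts in a pharyngeal neuron. The strongest peaks of replicate 1 taken alone did put a summit within 5 kb of ceh-12. The nearest thresholded summit of the 31 genes lay from 5085 bp to 89019 bp away, with a median of 12744 bp, and within 10000 bp at 11 of them. The largest distances were those of ceh-81, ceh-82 and ceh-83, which lie close together on chromosome II.

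For comparison, 45 other homeobox genes were listed by name, including the 9 ceh genes set aside. Of the ceh genes described here 23 of 54 were bound, or 42.6%, against 22 of 45 of these others, or 48.9% (33.7 to 64.2), and 10 of 54, or 18.5%, had a promoter summit against 7 of 45, or 15.6%. The strongest summits of these others were those of unc-42 (3177), lim-4 (957.6), zfh-2 (836.8), lim-7 (794.4) and zag-1 (606.6), so that 4 of them stood above the strongest of the ceh genes described here, 734. That of zag-1 lay in the gene body but had its nearest 5′ end at aat-8. The intervals of these shares overlap, and the difference was not tested.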

How the data were processed

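The data were ChIP-seq peak lists of 2 biological replicates of 1 group, with no control list analysed here. The authors called relaxed lists for each replicate and for the pool, against a control, and from these an IDR-thresholded pooled list, per the labels and the notes kept with each library. No aligner or peak caller is named in the sources used here. The signal and the −log10 q of each peak are the values deposited by the authors. Their signal was used to describe and rank peaks, and −log10 q only to count entries at or above 2. Replicate and pooled lists were called separately, so signals were compared between replicates and not with the pool.

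The ce11 lists were placed on the WBcel235 genes of Ensembl release 115, with all annotated transcripts of protein-coding genes giving 5′ ends, and bases were read from the RefSeq WBcel235 genome. All peaks ended within that genome's chromosomes. Coordinates count from 1. The ce10 lists were not used. Summits of different lists were matched within 100 bp. Motifs were sought in 101 bp on both strands. Python 3.11.15, pandas 2.3.3, scipy 1.17.1 and pyfaidx 0.9.0.4 were used. The 95% intervals of shares are exact binomial (Clopper-Pearson) and reflect counting error alone. Placing and matching were tested on planted summits.

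Nothing was compared between conditions, since the design has a single group, so shares stand beside those of all genes without a test. Every bound gene was named, with values for the 10 others of highest relaxed signal, the remaining genes by name with a range or as having no entry, and the 5 other homeobox genes with the strongest summits. The genes, lists and classes were chosen with earlier results of these data known, and homeobox classes were assigned by hand, 1 listed CUT gene (ceh-44) having no match under that name. Nothing in the labels says that the replicates were separate cultures beyond calling them biological replicates. Alternatives covered reach, promoter window, stricter or looser peak sets, each replicate alone, matching distance and motif window.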

Additional observations from a re-analysis of the deposited data

How the results depend on the processing

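Of 42 alternatives, 33 stayed within 1.5 times the reported count, or within the interval or spread of the reported value, and 9 did not. With only the strongest 50% of the thresholded list, 14 ceh genes were bound in place of 23, 6 had a promoter summit in place of 10, 24 summits lay at the genes in place of 51, and 13 other homeobox genes were bound in place of 22; this follows from fewer peaks, and all protein-coding genes fell to 27.6% bound. A reach of 2 kb or 1 kb left 33 or 22 summits, while 21 or 16 genes were bound (38.9% or 29.6%), against 28.9% or 22.9% of all genes. Of the 16 genes with a relaxed entry only, 4 kept one with a −log10 q of at least 2 and 9 kept one matched in both replicates. With a motif window of 25 bp, 1 summit in place of 3 held the Snail-type E-box. With the strongest peaks of 1 replicate alone, 24 (replicate 1) or 25 (replicate 2) ceh genes were bound, of which 21 or 23 were among the reported 23; replicate 1 alone lost ceh-87 and ceh-91 and gained ceh-1, ceh-12 and ceh-92, and replicate 2 alone gained ceh-20 and ceh-100. Added after the data had been seen, the summits matched in both replicates left 23 genes bound and 46 summits. No paired analysis was possible because there is a single group. Read depth is not known, so a missing site was below the lists' limits and is not shown to be absent.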

Other observations

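The bound ceh genes were spread over all 6 nuclear chromosomes. On X, 8 of 14 were bound, or 57.1% (95% exact interval 28.9 to 82.3), against 50.5% of all protein-coding genes of X. On V, 4 of 12 were bound, or 33.3%, against 27.2%, and on IV 2 of 4, or 50%, against 40.2%. The share was lower than that of all genes on II, with 5 of 13 or 38.5% against 39.8%, on III, with 2 of 6 or 33.3% against 54.9%, and on I, with 2 of 5 or 40% against 54.9%. These counts are small and the differences were not tested.

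Close pairs of summits were seen at several of these genes. Of the 51 summits at ceh genes, 7, or 13.7%, had another thresholded summit within 250 bp, against 7.64% of all nuclear summits. They include the pairs at ceh-38, ceh-22 and the distal site of ceh-58, where the 2 entries share the same peak borders; these pairs were chosen for display with their values known.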
